A study of Mus musculus with 4 samples.

Results

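The genes described here are 10 genes of the hypoxia-inducible factor (HIF) pathway and of BNIP3-dependent mitophagy: Hif1a, Egln1, Egln2, Egln3, Vhl, Bnip3, Bnip3l, Ndrg1, P4ha1 and Vegfa. They were taken by gene name from a table of 53465 genes, each name stood on 1 row, and all 10 were among the 13528 genes with enough counts to be tested. The cells were CD8+ T cells of mouse spleen, activated for 24 h by anti-CD3/CD28 beads, which stand in for antigen and costimulation, and their mRNA was sequenced. Of 4 libraries, 2 were labelled wild type (WT) and 2 were labelled as a knockout of PP2Cm (PP2Cm-/-), the mitochondrial phosphatase that activates breakdown of branched-chain amino acids. Both groups received the same stimulation, and the labels call the libraries biological replicates. The sources used here give no age, sex, strain background or construct of the knockout. If the replicates were not separate mice, p values measure only the spread between these samples.

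The labels conflict. The title and genotype field of each sample name 1 genotype and its description code begins with the letters of the other. Groups follow the title, so "WT-labelled" and "KO-labelled" stand for what the title says, and each sign would turn if the codes were right. Ppm1k, which encodes PP2Cm, had 102 and 94 counts in the WT-labelled libraries and 157 and 206 in the KO-labelled ones, the reverse of what the labels name. That difference had an adjusted p of 0.186 by edgeR and 0.146 by DESeq2. Library totals ran from 12967251 to 17316284 counts. The defining T cell gene Cd8a stood at 511 to 547 counts per 1000000 (CPM, scaled between libraries by TMM), far above Cd4 at 3.0 to 10 CPM. Summed over 10 genes of CD8 T cell identity, the level was 3459 and 3210 CPM in the WT-labelled libraries and 3069 and 2881 CPM in the KO-labelled ones, so the labels did not overlap. Of these 10, 8 were lower in fitted value and 0 passed by edgeR, while 3 (Cd3d, Cd3g and Lck) were lower at an unadjusted p under 0.05. The part of this difference in the results that follow was not tested.

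HIF-1 is a transcription factor made of an oxygen-regulated alpha subunit, encoded by Hif1a, and a constant partner, ARNT. In oxygen the prolyl hydroxylases EGLN1, EGLN2 and EGLN3 mark the alpha subunit, VHL then recruits a ubiquitin ligase to it, and it is degraded. When it is stable, it raises genes of glycolysis, angiogenesis, collagen modification and mitophagy. In T cells the receptor signal also raises HIF-1 in normal oxygen, and the factor is known for its part in the glycolysis and effector functions of CD8+ T cells. Most control of the alpha subunit is on the protein, which RNA counts do not show.

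Within the 10 genes, 3 stood lower in the KO-labelled libraries: the mitophagy receptor gene Bnip3, the stress-responsive gene Ndrg1, and Bnip3l, a close relative of Bnip3. Hif1a itself, Vhl and the target genes Vegfa and P4ha1 differed by at most 1.15-fold. Egln1 was slightly lower and Egln3 was higher. By edgeR's quasi-likelihood test, with Benjamini-Hochberg adjustment over all genes, 0 of the 10 passed an adjusted p of 0.05, where 0.207% of all genes tested did. Of the 10, 4 had an unadjusted p under 0.05, all of them lower, and 0 were higher with such a p, where 7.23% and 5.7% of all genes were lower and higher. DESeq2 called 3 of them, all lower (Bnip3, Ndrg1 and Bnip3l), where it called 1.26% of genes lower. In bulk RNA, fewer cells that express a gene and less RNA per cell cannot be told apart.

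**Figure D1:**
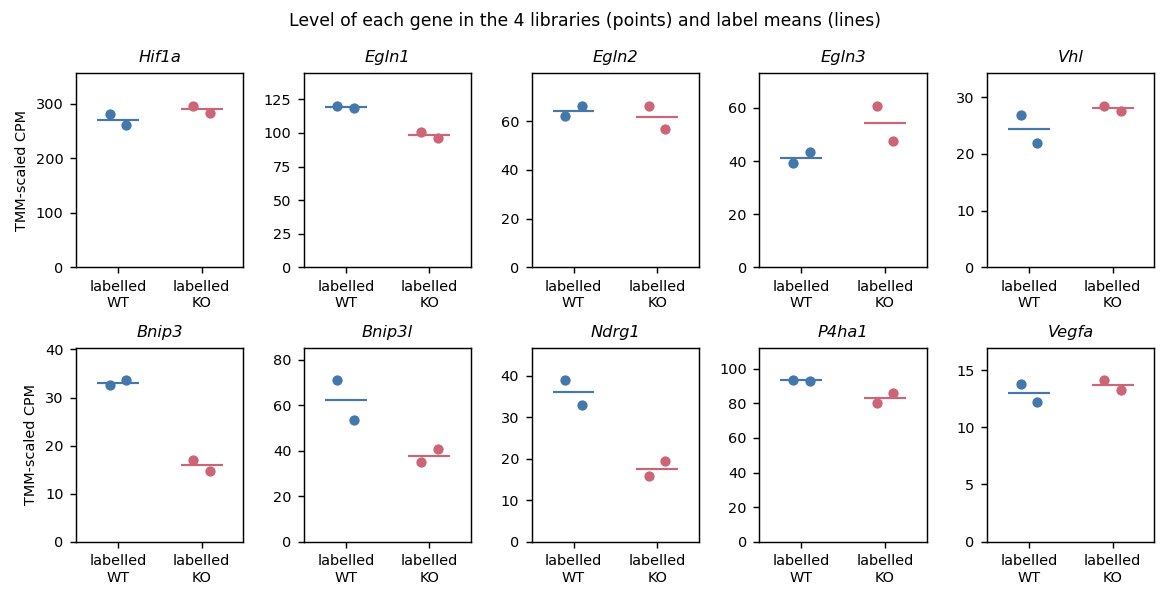
Each panel plots the level of 1 gene in CPM scaled by TMM (y axis, from 0) in the 2 libraries of each label (points), with the label's mean as a line. The points of the labels are far apart for Bnip3 and Ndrg1, and overlap for Egln2 and Vegfa. For Bnip3l they are separate, by less than the distance within the WT-labelled pair.

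Levels are compared between genes on the deposited FPKM, which are counts per kilobase of gene and per 1000000 counts. The gene length behind the FPKM was longer than the merged annotated exons for every gene of the set except Egln1 and Egln3. It was 8014 bases for Vegfa, 6537 for P4ha1 and 5125 for Bnip3l, where their merged annotated exons hold 4285, 4114 and 3859 bases. For Egln1 and Egln3 both lengths were the same, at 3594 and 2662 bases. The order below therefore depends on the lengths used. In the libraries labelled WT the order was Hif1a (38.7 ± 2.60 FPKM, SD, n = 2), Egln1 (33.0 ± 0.892), Egln2 (19.1 ± 0.623), Egln3 (15.4 ± 0.838), P4ha1 (14.2 ± 0.29), Bnip3l (12.1 ± 2.59), Bnip3 (10.4 ± 0.075), Vhl (6.31 ± 1.01), Ndrg1 (4.23 ± 0.56) and Vegfa (1.61 ± 0.158). Bnip3l differed from its neighbours P4ha1 and Bnip3 by less than its own SD, and the other neighbours differed by more than either SD. In the libraries labelled KO, Hif1a (41.9 ± 0.68 FPKM) and Egln1 (27.5 ± 0.436) again led. Egln3 (20.4 ± 3.23) then stood above Egln2 (18.6 ± 1.65) by less than its SD. Vhl (7.34 ± 0.036) stood above Bnip3 (5.05 ± 0.452) and within the SD of Bnip3l (7.43 ± 0.953). On these FPKM, the mRNAs of the subunit and of its main hydroxylase were thus the most abundant of the set under both labels. That of the secreted growth factor was the least abundant on the same scale.

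The oxygen-regulated subunit came first. Hif1a (ENSMUSG00000021109, GRCm38 chr12:73901375-73947530, plus strand) stood at 281 and 261 CPM in the WT-labelled libraries and 296 and 283 CPM in the KO-labelled ones. The KO-labelled libraries were both higher, but the nearest values of the labels were closer than those of the WT-labelled pair. The log2 fold change, labelled KO minus labelled WT, was 0.10 (SE 0.11, 95% interval −0.15 to 0.35), with an edgeR adjusted p of 0.756. It ran from 0.045 without labelled WT replicate 2 to 0.16 without labelled WT replicate 1, and was 0.062 without labelled KO replicate 1. Among the other subunits and coactivators in a list of 7, 5 were tested, Hif1a included, and 0 passed the threshold in either direction. Epas1, which encodes the HIF-2 alpha subunit, stood at 7.61 and 5.24 CPM in the WT-labelled libraries against 5.41 and 4.29 CPM. Its log2 fold change of −0.40 (SE 0.28) was −0.11 without labelled WT replicate 1, −0.65 without labelled WT replicate 2 and −0.24 without labelled KO replicate 2. The acetyltransferase coactivators Ep300 and Crebbp had log2 fold changes of 0.10 and 0.12, which were 0.15 and 0.35 without labelled WT replicate 1 and 0.052 and −0.075 without labelled WT replicate 2.

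The prolyl hydroxylases did not share a direction. Egln1 (ENSMUSG00000031987, chr8:124908587-124949324, minus strand) encodes PHD2, the main hydroxylase of HIF-1 alpha in most cells. It stood at 120.4 and 119 CPM in the WT-labelled libraries and at 101 and 96.1 CPM in the KO-labelled ones. The replicates were close and the labels did not overlap. Its log2 fold change was −0.28 (SE 0.10, 95% interval −0.53 to −0.032), with an edgeR adjusted p of 0.335. Egln3 (ENSMUSG00000035105, chr12:54178981-54203860, minus strand) encodes PHD3 and is itself a known HIF target. It stood at 39.3 and 43.4 CPM in the WT-labelled libraries and at 60.9 and 47.5 CPM in the KO-labelled ones. Both KO-labelled libraries were above both WT-labelled ones, and most of the distance came from labelled KO replicate 1. The log2 fold change was 0.39 (SE 0.17, 95% interval −0.010 to 0.79; edgeR adjusted p = 0.398) and was 0.20 without that library. Egln2 (ENSMUSG00000058709, chr7:27158658-27166802, minus strand) encodes PHD1, which acts in the nucleus. It stood at 61.9 and 66.3 CPM against 66.1 and 56.9 CPM, so the labels overlapped, with a log2 fold change of −0.061 (SE 0.14, 95% interval −0.39 to 0.27; edgeR adjusted p = 0.898). Its sign turned, to 0.049, without labelled KO replicate 2, and the value ran from −0.17 to −0.0099 as each of the other libraries was left out.

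Vhl (ENSMUSG00000033933, chr6:113623959-113631633, plus strand) encodes the substrate adaptor of the ligase that removes the hydroxylated subunit. It stood at 26.9 and 21.9 CPM in the WT-labelled libraries and at 28.5 and 27.6 CPM in the KO-labelled ones. The pair labelled KO lay just above the higher library labelled WT. The log2 fold change was 0.20 (SE 0.17, 95% interval −0.19 to 0.60; edgeR adjusted p = 0.662). It was 0.36 with labelled WT replicate 1 left out and 0.062 with replicate 2 of that label left out. In a list of 12 genes of oxygen sensing and HIF degradation, all were tested, 6 were lower and 6 higher in fitted value, and 0 passed by edgeR or DESeq2. The median was 0.013, beside −0.012 over all genes tested. Beside the genes above, Cul2, the scaffold of the VHL ligase, had a log2 fold change of 0.17, the membrane hydroxylase gene P4htm −0.27, and Siah2, a ubiquitin ligase that acts on prolyl hydroxylases, 0.13. The Siah2 value was 0.040 without labelled KO replicate 1 and 0.23 without labelled KO replicate 2.

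**Figure D2:**
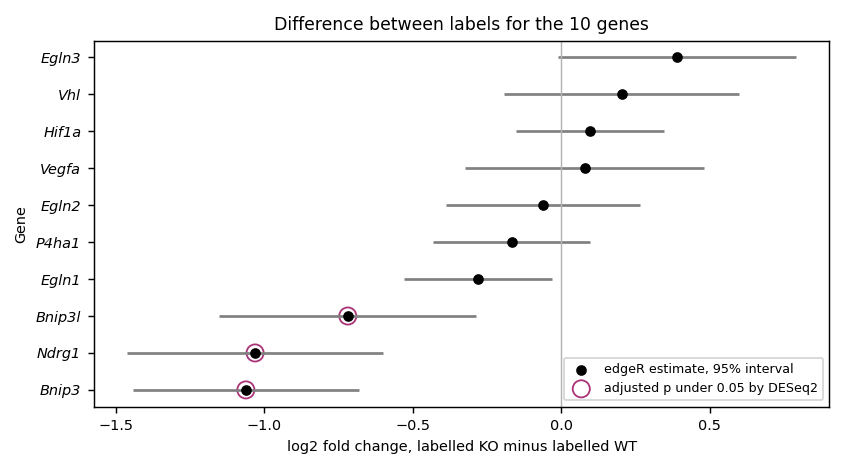
The x axis gives the log2 fold change of each gene, labelled KO minus labelled WT, from edgeR, with its 95% interval as a bar. Bnip3, Ndrg1, Bnip3l and Egln1 have intervals below 0, and rings mark the 3 genes with an adjusted p under 0.05 by DESeq2.

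Bnip3 and Bnip3l encode related proteins of the outer mitochondrial membrane (BNIP3 and NIX) that bind ATG8 proteins and so link a mitochondrion to a forming autophagosome. Bnip3 (ENSMUSG00000078566, chr7:138890836-138909519, minus strand) had 424 and 572 counts in the WT-labelled libraries and 227 and 212 in the KO-labelled ones. Scaled, these were 32.6 and 33.7 CPM against 17.1 and 14.7 CPM. The replicates lay close to each other and the labels were far apart. The level was 2.09-fold lower in the KO-labelled libraries, a log2 fold change of −1.06 (SE 0.16, 95% interval −1.44 to −0.68). That gene ranked 58 of 13528 by p, and its adjusted p was 0.0702 by edgeR and 0.000727 by DESeq2. Without labelled KO replicate 2 the log2 fold change was −0.95, with an edgeR adjusted p of 0.356, in a range of 0.000727 to 0.356 over all alternatives.

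Bnip3l (ENSMUSG00000022051, chr14:66985239-67008877, minus strand) had 926 and 911 counts in the WT-labelled libraries and 464 and 590 in the KO-labelled ones. Scaled, these were 71.1 and 53.6 CPM against 34.9 and 40.8 CPM. The labels did not overlap, but the pair labelled WT was spread more widely than for Bnip3. The gap between the labels was smaller than the distance within that pair. The level was 1.65-fold lower, with a log2 fold change of −0.72 (SE 0.18, 95% interval −1.15 to −0.29) and an adjusted p of 0.199 by edgeR and 0.0418 by DESeq2. Summed markers of erythroid cells and platelets, a lineage in which NIX clears mitochondria, were 6.38 and 12.2 CPM in the WT-labelled libraries and 3.16 and 4.50 CPM in the KO-labelled ones. The list holds 9 markers. The platelet integrin gene Itga2b made up the largest share, at 3.07 and 6.06 CPM against 1.504 and 2.22 CPM, and without it the sums were 3.30 and 6.18 CPM against 1.65 and 2.28 CPM. The highest haemoglobin gene was Hba-a1, which reached 1.59 CPM, and the haem synthesis gene Alas2 was at 0 in all libraries. The part of erythroid cells and platelets in the Bnip3l result was not tested.

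Both mitophagy receptor genes have near-identical copies, which makes their counts uncertain. A transcribed processed pseudogene, Bnip3l-ps, matched Bnip3l transcripts at 99.4% identity over 1131 bases in GENCODE M21. It had 438 and 370 counts in the WT-labelled libraries and 195 and 271 in the KO-labelled ones. Of the counts given to the gene and the pseudogene together, the pseudogene took 32.1%, 28.9%, 29.6% and 31.5% in the 4 libraries, a nearly constant share. With both summed, the Bnip3l log2 fold change was −0.72 (edgeR adjusted p = 0.214). For Bnip3, 5 copies at 90% identity or more over at least 200 bases were annotated elsewhere, and they held 56 and 87 counts against 32 and 39. These made up 11.7% to 15.5% of the summed counts in each library, and the sources used here do not say how the reads were divided. Annotated genes that overlap Hif1a, Egln2, Bnip3 or Ndrg1 on either strand had at most 8 counts in any library.

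**Figure D3:**
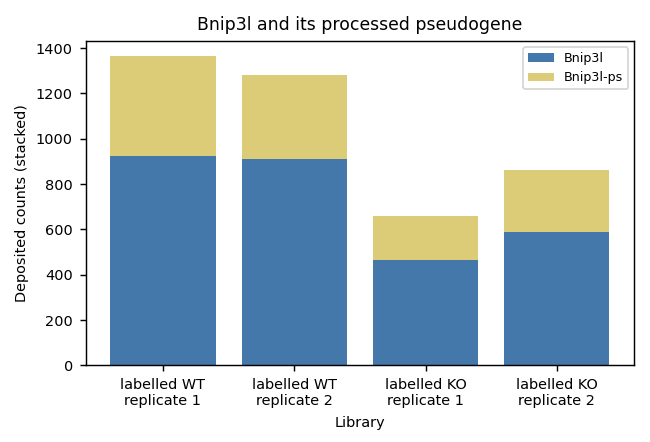
Bars give the deposited counts (y axis, from 0) of Bnip3l and, stacked on them, of Bnip3l-ps in each of the 4 libraries. The stack is 1364 and 1281 counts high in the WT-labelled libraries and 659 and 861 in the KO-labelled ones, and the pseudogene's share is similar in all.

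The DNA before the start sites was read for the short core that HIF dimers bind, since some of these genes stood lower together and others did not. RefSeq promoter windows (GRCm38.p6) were matched for 8 of the 10 genes, and Bnip3l and Ndrg1 had none. The 250 bases before each start were searched on both strands for ACGTG and for GCGTG, where an ACGTG on each strand can overlap in a palindrome and then counts at 2 places. Shown are Bnip3, with the largest difference between labels, P4ha1, a target with a small one, and Egln3, which stood higher. Capitals mark the matches, and letters inside the annotated GENCODE transcript are left off.
Bnip3, chr7:138909520-138909756, minus strand: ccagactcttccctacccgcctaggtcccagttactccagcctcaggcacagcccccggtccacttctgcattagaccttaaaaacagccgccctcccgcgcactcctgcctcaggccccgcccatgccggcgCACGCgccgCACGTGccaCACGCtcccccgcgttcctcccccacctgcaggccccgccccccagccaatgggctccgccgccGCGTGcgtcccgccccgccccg
P4ha1, chr10:59323046-59323295, plus strand: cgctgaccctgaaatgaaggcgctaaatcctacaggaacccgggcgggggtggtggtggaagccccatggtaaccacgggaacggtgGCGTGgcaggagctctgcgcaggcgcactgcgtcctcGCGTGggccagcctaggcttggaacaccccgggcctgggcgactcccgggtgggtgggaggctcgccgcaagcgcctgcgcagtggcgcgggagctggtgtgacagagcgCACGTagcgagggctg
Egln3, chr12:54203875-54204124, minus strand: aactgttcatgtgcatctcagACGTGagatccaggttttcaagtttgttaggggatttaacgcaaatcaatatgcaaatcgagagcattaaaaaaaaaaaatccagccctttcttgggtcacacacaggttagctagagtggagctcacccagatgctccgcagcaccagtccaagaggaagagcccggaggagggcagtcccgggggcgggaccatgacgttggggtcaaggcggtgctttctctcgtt

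The Bnip3 window held a palindrome that reads ACGTG on both strands, 108 to 103 bases before the start, with GCGTG on the reverse strand 117 and 99 bases before it and on the forward strand 35 bases before it. P4ha1 held ACGTG once, 16 bases before the start, and GCGTG at 126 and 163 bases. Egln3 held ACGTG once, 229 bases before the start, and no GCGTG. Of the 10 windows matched, 7 held ACGTG and 6 held GCGTG. Not all of these lay outside the annotated gene. The Vegfa window with matches lay within the gene, and the Vegfa window before the gene's annotated 5' end held neither core. The Hif1a window, which held ACGTG, and an Egln2 window, which held only GCGTG, also lay within their annotated genes. The Egln1 window lay partly within its gene. Its only ACGTG, 68 bases before the start, was inside the annotated gene, and its GCGTG was outside. Among all 32851 RefSeq windows of the same length, 16.6% held ACGTG and 28.2% held GCGTG. The Bnip3 window was 72.4% G and C and the Egln3 window 50.8%, so base composition differed between them. Of the 3 genes that stood lower, only Bnip3 had a window to search. A match is a description of these windows and does not show binding.

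Among the target genes, Ndrg1 stood apart from P4ha1 and Vegfa. Ndrg1 (ENSMUSG00000005125, chr15:66929321-66969640, minus strand) encodes a cytoplasmic protein that is induced by hypoxia and other stresses. It had 507 and 561 counts in the WT-labelled libraries and 209 and 281 in the KO-labelled ones, or 39.0 and 33.0 CPM against 15.7 and 19.5 CPM. The labels did not overlap. The level was 2.04-fold lower, a log2 fold change of −1.03 (SE 0.18, 95% interval −1.46 to −0.60), with an adjusted p of 0.0935 by edgeR and 0.00194 by DESeq2. Of the other 3 genes of its family, Ndrg2 stood at 25.7 and 25.3 CPM against 16.2 and 13.8 CPM, with a log2 fold change of −0.77 (SE 0.16; edgeR adjusted p = 0.146). Ndrg3 had a log2 fold change of −0.050, which was −0.12 without labelled KO replicate 1, −0.022 without labelled WT replicate 2 and turned to 0.021 without labelled KO replicate 2. Ndrg4 was too low to test.

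P4ha1 (ENSMUSG00000019916, chr10:59323296-59373304, plus strand) encodes the catalytic subunit of collagen prolyl 4-hydroxylase. It stood at 93.6 and 93.0 CPM in the WT-labelled libraries and at 79.9 and 86.3 CPM in the KO-labelled ones. The labels did not overlap, but the log2 fold change was only −0.17 (SE 0.11, 95% interval −0.43 to 0.10; edgeR adjusted p = 0.582). In a list of 7 collagen prolyl and lysyl hydroxylase genes, 6 were tested and 0 passed. The lysyl hydroxylase Plod3 had a log2 fold change of 0.46, the low-abundance P4ha2 −1.09 (SE 0.39), and P4hb, the shared beta subunit, 0.054. P4ha2 was at −0.67 without labelled WT replicate 2, and P4hb ran from 0.0032 to 0.11 as each of the 4 libraries was left out in turn. Genes of the same enzyme family thus had differences of either sign.

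Vegfa (ENSMUSG00000023951, chr17:46016993-46032369, minus strand) encodes the main growth factor of blood vessel growth and is a textbook HIF target. It stood at 13.8 and 12.2 CPM in the WT-labelled libraries and at 14.1 and 13.3 CPM in the KO-labelled ones. The labels overlapped, and the log2 fold change was 0.079 (SE 0.17, 95% interval −0.32 to 0.48; edgeR adjusted p = 0.892). It turned to −0.0040 without labelled WT replicate 2 and ran from 0.034 to 0.17 as each of the others was left out. Of the 10 VEGF ligand and receptor genes found in the table, 4 had 0 counts in all libraries, 4 were tested and 0 passed. Beside Vegfa these were the ligand Vegfb at −0.13, and the co-receptors Nrp1 at 0.66 (SE 0.31) and Nrp2 at 0.24. Nrp2 ran from 0.039 to 0.46 as each of the 4 libraries was left out. Vegfb was at −0.21 without labelled KO replicate 1 and −0.042 without labelled KO replicate 2.

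Over the 10 genes, both KO-labelled libraries lay below both WT-labelled ones in 5 and above in 3, so that 2 overlapped. Over all genes tested 44.9% did not overlap, 23.3% with the libraries labelled KO below and 21.5% with them above. The median log2 fold change of the 10 was −0.11, beside −0.012 over all genes tested. The individual values ran from −1.06 for Bnip3 to 0.39 for Egln3, so the median stands for few of them.

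A wider list of 45 HIF target genes, written from textbook knowledge with earlier results of these data known, was read beside them. Of 44 tested, 2 fell and 0 rose by edgeR (0.103% of all genes did each): Slc16a3, which encodes the lactate exporter MCT4, and Ddit4, which encodes the mTORC1 inhibitor REDD1. Their log2 fold changes were −1.26 (SE 0.14) and −0.93 (SE 0.11), with edgeR adjusted p values of 0.0359 and 0.0425, over alternatives that ranged from 1.23e-09 to 0.14 and from 6.8e-07 to 0.183. Both lost the call without labelled KO replicate 1 (0.0561 and 0.114) and without labelled KO replicate 2 (0.14 and 0.183). Leaving out the 7 genes of the set, 27 of 37 were negative (73%, beside 51.9% of all genes), and the median was −0.26. At an unadjusted p under 0.05, 13 of the 37 were lower and 2 were higher, where 7.23% and 5.7% of all genes were. With the set's own genes, 17 of 44 were lower and 2 higher at such a p. In 17 of the 37 both KO-labelled libraries lay below, and in 5 above, where 23.3% and 21.5% of all genes did.

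Next by p among the genes of that list outside the set was Plin2, which encodes a coat protein of lipid droplets, at 12.4 and 13.4 CPM against 7.14 and 6.02 CPM (log2 fold change −0.97, SE 0.19; edgeR adjusted p = 0.124). The targets were not uniform. Besides Vegfa, the droplet-associated Hilpda, the mitochondrial Higd1a and the secreted Angptl4, named after their values were seen, had log2 fold changes of −0.035, −0.031 and −0.082. Summed markers of B cells, myeloid cells and stromal or endothelial cells were lower in both KO-labelled libraries as well. They were 363 to 419.6 CPM against 264 to 299.6 CPM for 7 B cell markers, mostly Ighm, and without Ighm 13.5 and 17.8 CPM against 13.7 and 7.13 CPM, so that the labels overlapped. For 11 myeloid markers, mostly Ctss with S100a9 at 0, they were 41.0 to 42.7 CPM against 30.5 to 32.7 CPM, and without Ctss 5.92 and 12.6 CPM against 8.35 and 7.75 CPM, which overlapped as well. For 7 stromal and endothelial markers, mostly Pecam1 with Col3a1, Cdh5 and Cxcl12 at 0, they were 31.2 to 37.5 CPM against 18.05 to 19.04 CPM, and without Pecam1 at most 0.530 CPM in any library. The sum of the CD8 T cell identity genes was lower too, as given above. For 5 NK cell markers, mostly Eomes, sums were 85.3 and 95.7 CPM against 84.1 and 78.9 CPM, and without Eomes the labels overlapped. Of 5 markers of CD4 and regulatory T cells, 4 were higher in both KO-labelled libraries and 1 was lower, and 0 passed by edgeR. Their sums overlapped, at 22.1 and 31.7 CPM against 40.2 and 24.7 CPM. The part of these marker differences in the results was not tested.

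**Figure D4:**
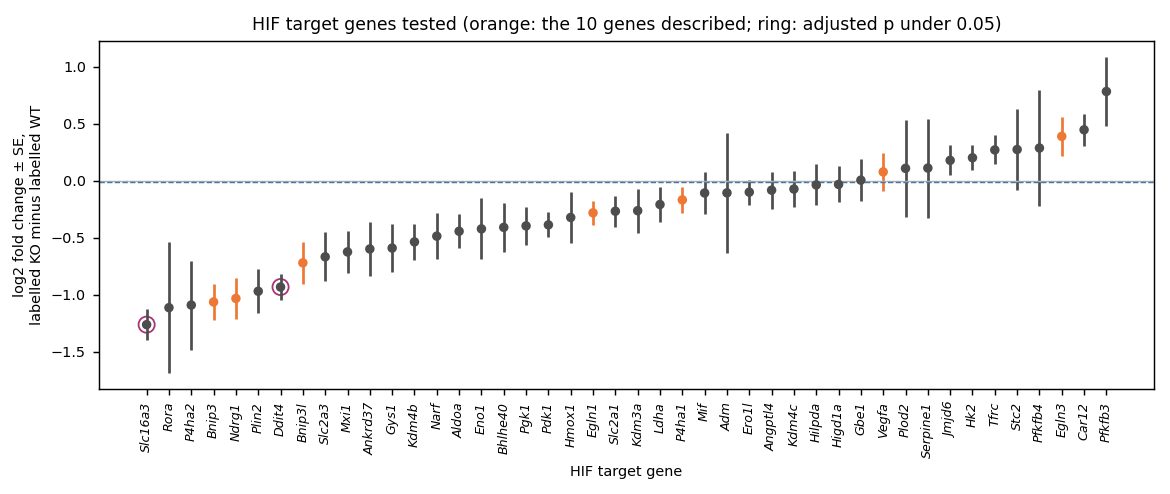
The y axis gives the log2 fold change of each of 44 HIF target genes tested, labelled KO minus labelled WT, with its SE as a bar, in order of value along the x axis. Orange marks the genes described above, rings mark Slc16a3 and Ddit4, and the dashed line is the median of all genes tested (−0.012).

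In the mitophagy list of 23 receptors, adaptors and ATG8 proteins, 22 were tested and 0 passed by edgeR, while 4 lower and 1 higher had an unadjusted p under 0.05, where 7.23% and 5.7% of all genes did. DESeq2 called 2 lower, Bnip3 and Bnip3l, and 1 higher, where it called 1.26% and 0.625% of all genes. That gene was Pgam5, a mitochondrial phosphatase that acts on the receptor FUNDC1, at 38.6 and 48.3 CPM against 97.6 and 88.8 CPM (log2 fold change 1.1, SE 0.15; adjusted p 0.053 by edgeR and 1.28e-06 by DESeq2). The autophagy adaptor Sqstm1, which encodes p62, had a log2 fold change of −0.36 (SE 0.10), and the kinase Pink1, which starts the other main route of mitophagy, −0.72 (SE 0.23), with edgeR adjusted p values of 0.248 and 0.277. Pink1 was at −0.43 without labelled WT replicate 1. Leaving out Bnip3 and Bnip3l, 14 of 20 were negative (70%, beside 51.9% of all genes), with a median of −0.17, beside −0.012. The list thus held differences of both signs, the largest upward one in Pgam5.

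The profile of Bnip3 over the 4 libraries was compared with that of each tested gene of at least 5 CPM on average, as the root mean square difference of centred log2 CPM. The 5 closest were Plin2 (0.057), Pla2g16 (0.062), a phospholipase gene, Rasa4 (0.065), a Ras GTPase activator, Rinl (0.065) and Nod1 (0.073), a sensor of bacterial peptidoglycan. With 4 libraries, such likeness rests mostly on the difference between labels and is a description. Ndrg1 differed from Bnip3 by 0.21 and Bnip3l by 0.28. Both genes had the higher labelled WT value in replicate 1 and the higher labelled KO value in replicate 2, whereas Bnip3 had the reverse.

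**Figure D5:**
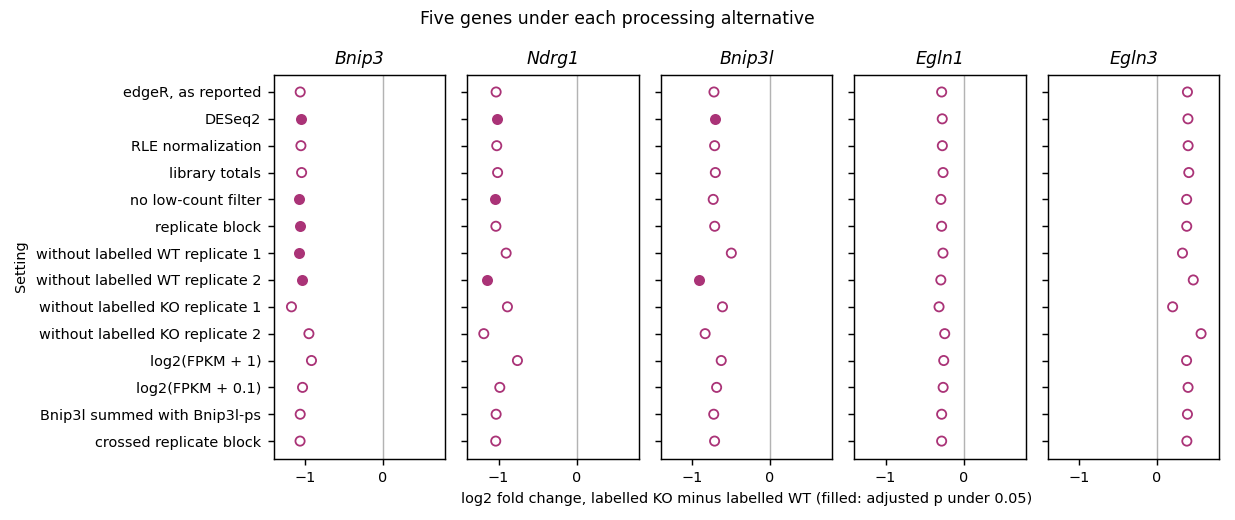
Each panel gives the log2 fold change of 1 gene (x axis) under each processing alternative (y axis), filled where the adjusted p was under 0.05. The values of Bnip3 stay between −1.17 and −0.92 and those of Egln3 between 0.20 and 0.57, while the number of filled points differs between genes.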

How the data were processed

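Per the file headers, the authors deposited whole-number counts per gene without normalization, and FPKM per gene. The submitters' processing notes name kallisto and GRCm38; the sources used here do not give the counting rule, strand use or filters. Columns carry the description codes and were joined to samples through them. The table holds 8 other value columns, which were not used here. Replicates differed beyond sampling noise: chi-square per degree of freedom was 19.2 for the WT-labelled and 13.9 for the KO-labelled pair.

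Genes were filtered by filterByExpr, scaled by TMM and tested across the whole table with the quasi-likelihood test of edgeR 4.0.16 (R 4.3.3), two-sided, with Benjamini-Hochberg adjustment at 0.05. The SE is the fold change over the square root of F. The script was tested on simulated data. A single value in 2 against 2 libraries cannot go below an exact p of 0.333, so p values rest on spread pooled across genes. Alternatives used DESeq2 1.42.0, limma 3.58.1 on log2(FPKM + 1) and log2(FPKM + 0.1), other scaling, no filter, a replicate block and each library left out. A count of 0 allows 0.173 to 0.231 CPM (3 counts), counting error alone. Transcripts were compared with blastn 2.17.0, at 90% identity over 200 bases.

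The genes and lists were chosen with earlier results of these data known. Named from each list were all genes past the threshold and the 3 genes outside the 10 of smallest p, and the 5 genes most like Bnip3.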

Additional observations from a re-analysis of the deposited data

How the results depend on the processing

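Over 13 alternatives, the 35 genes named by the rule kept their direction except 4, each with 1 library left out: Crebbp (−0.075 without labelled WT replicate 2, in a range up to 0.35), Vegfa (−0.0040 without the same library, up to 0.17), Egln2 (0.049 without labelled KO replicate 2, down to −0.17) and Ndrg3 (0.021 without the same library, down to −0.12). On log2(FPKM + 1), the low genes Epas1, Nrp1, Nrp2, P4ha2, P4htm, Plin2, Rasa4 and Ppm1k had smaller values of the same sign (−0.19, 0.15, 0.046, −0.24, −0.078, −0.60, −0.40 and 0.59). The number of the 10 genes called was 0, against 3 by DESeq2, 2 without a low-count filter, 1 with the replicate block, and 0 to 3 as single libraries were left out. HIF targets called were 2, against 5 by DESeq2, 1 with scaling by library totals, 4 without the filter, 0 on either FPKM scale, and 0 to 5 with a library left out. Mitophagy genes called were 0, against 3 by DESeq2, 2 without the filter, 2 with the replicate block, and 0 to 4 with a library left out. Of all genes tested, 28 were called, against 253 by DESeq2, 146 without the filter, 123 with the replicate block, 5 on log2(FPKM + 1), 4 on log2(FPKM + 0.1), and 8 to 304 with a library left out. The cause of these differences was not tested. Leaving out a library leaves 1 label with a single sample, which is then assumed to vary like the pair of the other. The median of the 10 ran from −0.14 to −0.084 with a library left out. The deviations of same-numbered libraries from their label means were weakly and negatively correlated across genes (−0.168). A correlation of that size does not show whether the numbers mark a pairing or a batch. A crossed replicate block, chosen after seeing the data as was the sum with Bnip3l-ps, called 12 genes, 0 of them HIF targets. With 2 libraries per label, neither Egln1 nor Egln3 passed the threshold under any alternative.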

Other observations

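The hydroxylase genes Egln1 and Egln3 stood in a different ratio under each label. The ratio of Egln3 to Egln1 FPKM was 0.440 and 0.494 in the WT-labelled libraries and 0.817 and 0.667 in the KO-labelled ones, with means of 0.467 ± 0.038 and 0.742 ± 0.106 (SD, n = 2 each). The labels did not overlap. The pair was chosen after its values were seen, and 2 against 2 libraries cannot go below an exact two-sided permutation p of 0.333.

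Among the HIF targets, 2 of 44 were higher at an unadjusted p under 0.05, close to the 5.7% of all genes that were, while 17 were lower, where 7.23% of all genes were. Pfkfb3, which encodes an enzyme that makes the glycolytic activator fructose 2,6-bisphosphate, was named after its values were seen, as were the genes that follow. It stood at 39.1 and 28.7 CPM in the WT-labelled libraries and at 76.2 and 40.4 CPM in the KO-labelled ones (edgeR adjusted p = 0.357). The carbonic anhydrase gene Car12 stood at 36.6 and 39.9 CPM against 52.3 and 52.1 CPM (edgeR adjusted p = 0.267). Rora, a nuclear receptor gene, had a wide gap within a label, with 1.58 and 7.41 CPM in the KO-labelled libraries against 11.3 and 8.36 CPM.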
